A study of Homo sapiens with 6 samples.

Results

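Amino acid transporter genes of the families SLC1, SLC3, SLC6, SLC7, SLC36, SLC38 and SLC43 were examined in K562 cells with and without hyperoside. Genes were chosen by symbol alone, as the rows of the count table that carry one of these family names followed by A and a number with nothing after it. Of the 24960 genes in the table, 54 met this rule, with 7 in SLC1, 2 in SLC3, 17 in SLC6, 11 in SLC7, 3 in SLC36, 11 in SLC38 and 3 in SLC43. SLC6A11, SLC7A10, SLC7A13 and SLC36A3 were not analysed here.

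K562 is a human cell line from chronic myeloid leukemia that carries the BCR-ABL fusion, so both groups share that fusion and results from it describe 1 line. There were 6 RNA libraries, 3 of control cells and 3 of cells given hyperoside (2 mM). Hyperoside is a galactoside of the flavonol quercetin found in many medicinal plants. Whether control cells were given a vehicle is not stated. The time from the addition of hyperoside to RNA extraction is not stated, and the sources do not say whether replicates were separate cultures. P-values therefore measure the spread between these libraries, which may be technical. In bulk RNA, fewer cells with a transcript and less of it per cell cannot be told apart.

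Between 35613283 and 36754725 reads were counted on genes in each library. The labels give the tissue as bone. The bone markers BGLAP and SP7 stayed under 1 CPM (read counts scaled to a fixed normalized library total) in every library, and the 4 bone markers in the table summed to 3.76 to 6.14 CPM. The 9 erythroid markers of K562 cells were all present, at a sum of 5480 to 6890 CPM in control and 4640 to 5600 CPM in hyperoside libraries. The globin genes HBE1, HBG1 and HBG2 were lower, while KLF1, TFRC and LMO2 of the same list were higher (log2 fold changes 0.96, 0.88 and 0.92). BCR and ABL1 summed to 355 to 378 CPM in control and 388 to 424 CPM in hyperoside libraries, and the epithelial markers to 833 to 965 and 839 to 880 CPM. The monocytic markers summed to 51.2 to 55.6 CPM in control and 74.2 to 79.2 CPM in hyperoside libraries, nearly all of it LYZ, while CD14 and CSF1R stayed under 1 CPM. Lymphoid markers went from 32.1 to 38.7 CPM in control to 40.8 to 45.6 CPM in hyperoside libraries, with MS4A1 near 0. The 3 megakaryocytic markers in the table went from 19.2 to 26.3 CPM in control to 17.6 to 19.1 CPM in hyperoside libraries, with PPBP and GP1BA near 0. The part of these shifts in the values that follow was not tested.

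Amino acids do not cross membranes unaided, and each family moves its own set of them. SLC1 holds the glutamate carriers and the neutral amino acid exchangers, SLC6 the sodium and chloride coupled carriers of glycine, taurine, creatine and monoamines, and SLC43 facilitative carriers of large neutral amino acids. SLC3 proteins are heavy chains that carry the light chains of SLC7 to the plasma membrane, where the heterodimers exchange one amino acid for another. SLC36 and SLC38 members work at the plasma membrane or at the lysosome, where amino acids released from degraded protein are sensed and exported. Leukemia cells divide fast and take up glutamine, leucine and cystine through several of these proteins.

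Levels between genes are compared as FPKM, read counts scaled to gene length and library total. Of the 54 genes, 24 averaged above 1 FPKM over the 6 libraries, and the 6 highest held 80.3% of the summed FPKM. These were SLC6A8, SLC3A2, SLC1A5, SLC43A3, SLC38A2 and SLC7A8, the carriers of creatine, the heavy chain 4F2hc, and carriers of glutamine, purine bases, small neutral and large neutral amino acids. All 54 genes together took 0.347% of control counts and 0.374% of hyperoside counts. The other end of the range held very few reads. Of the 27 genes that failed the filter on low counts, none exceeded 19 counts in any library, and SLC38A4, SLC6A3, SLC6A17 and SLC7A2 had 0 counts in all 6, where a count of 0 allows up to 3 counts. Among these 27 were all 5 glutamate and aspartate carriers of SLC1, the monoamine carriers SLC6A2, SLC6A3 and SLC6A4, and 8 of 9 amino acid carriers of SLC6.

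**Figure D1:**
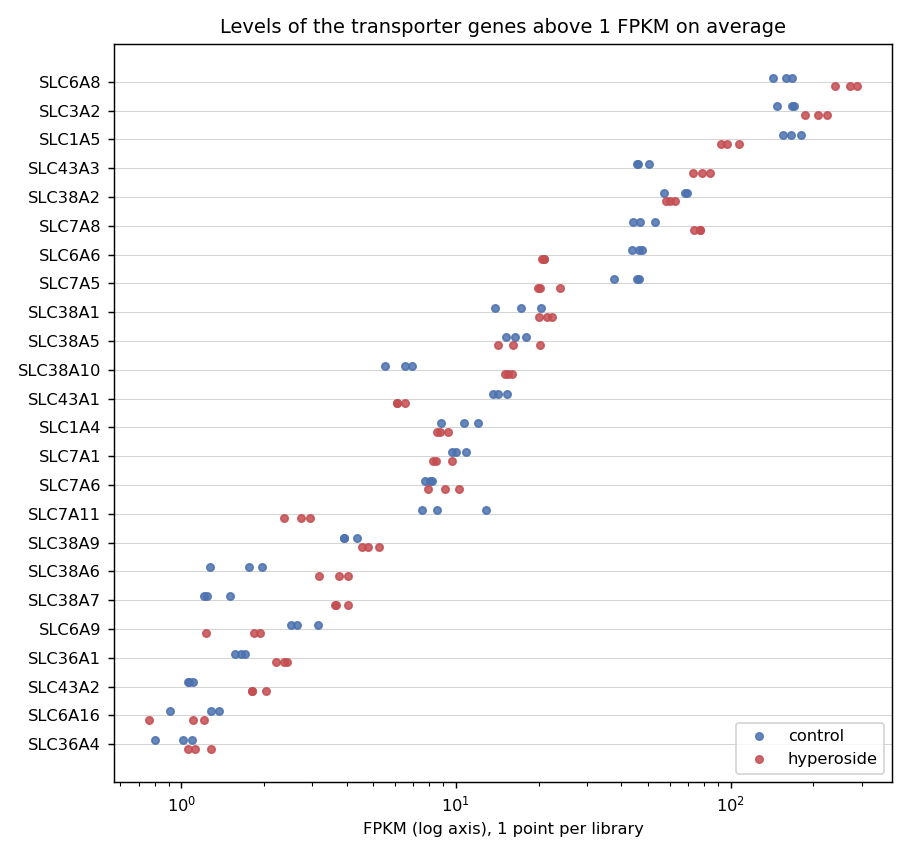
FPKM on a log axis of the 24 genes that averaged above 1 FPKM, ordered by level, with 1 point for each control (blue) and each hyperoside (red) library. SLC6A8, SLC3A2 and SLC1A5 stand highest, and the groups are clearly apart for SLC1A5, SLC6A6, SLC7A5, SLC7A11, SLC43A1, SLC38A10, SLC38A7 and SLC38A6.

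The remaining 27 genes were tested for a difference between hyperoside and control cells. Genes were called at an adjusted p under 0.05 in edgeR's quasi-likelihood test on the counts, and DEGs also had to differ more than 2-fold. Of the 27 genes, 11 were called higher in hyperoside cells, 8 lower and 8 neither. Over all 15095 tested genes, 22.1% were called higher and 23.2% lower. As DEGs, 4 genes were higher (SLC7A4, SLC38A6, SLC38A7, SLC38A10) and 4 were lower (SLC6A6, SLC7A5, SLC7A11, SLC43A1), where 6.43% of all tested genes were higher and 3.76% lower. The control and hyperoside libraries were fully separate in normalized counts for 19 of the 27 genes, and for 54.4% of all tested genes. Over the 27 genes the log2 fold change had a median of 0.21, and over all tested genes one of 0.00. Their median size of change without regard to sign was 0.69, against 0.33 over all tested genes and 0.38 over the 186 tested genes of other SLC families. One gene, SLC7A4, passed the filter only through its counts in the hyperoside group, so it had to differ. These shares describe the genes that passed and were not tested as a set.

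**Figure D2:**
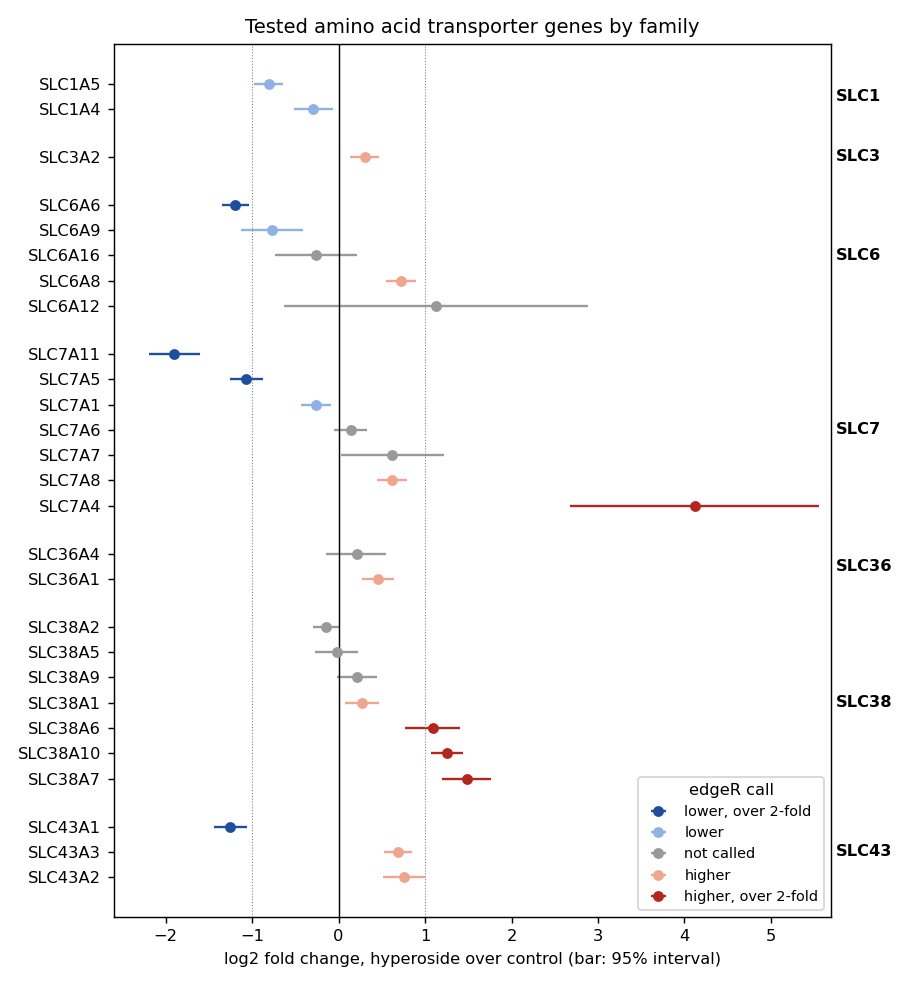
Log2 fold change, hyperoside over control, of the 27 tested transporter genes with 95% intervals, grouped by family and coloured by call, where dotted lines mark 2-fold. SLC6, SLC7 and SLC43 each hold genes called in both directions, and both tested SLC1 genes were lower. No SLC36 or SLC38 gene was called lower, where 23.2% of all tested genes were.

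**Figure D3:**
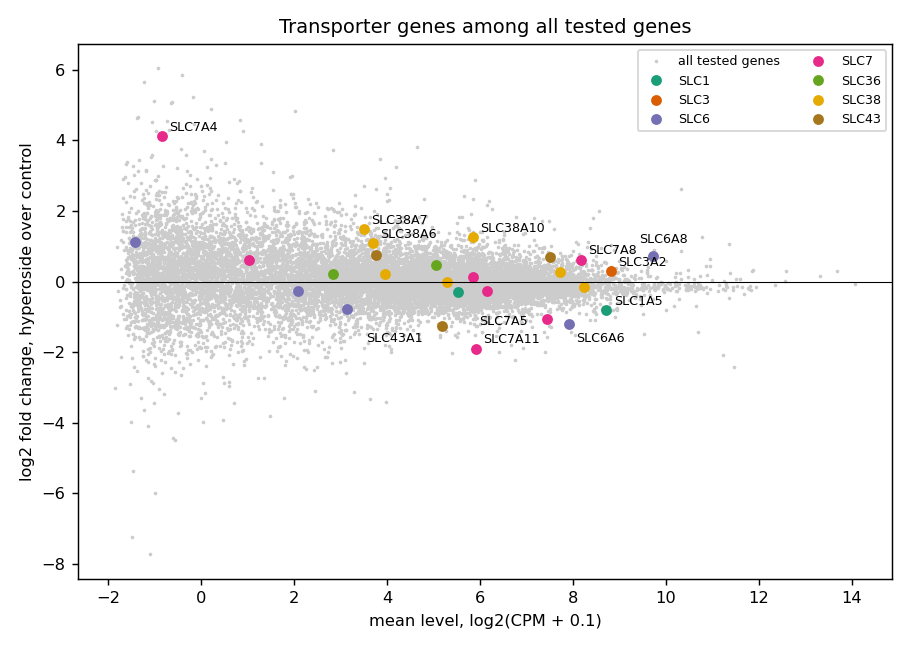
Log2 fold change against mean level, log2(CPM + 0.1), of all 15095 tested genes (grey) and of the transporter genes, coloured by family. SLC7A4 lies at the low end of the level axis, where grey points spread widest, while the other labelled genes lie among genes of middle to high level.

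A pair of motifs was looked for in the promoters of the transporter genes. The C/EBP-ATF response element (CARE), bound by ATF4 when amino acids run short, was searched as TGATGNAA. The antioxidant response element (ARE), bound by NRF2, was searched as TGACNNNGC, whose first 4 letters also begin AP-1 and cyclic AMP response elements. Both strands were searched, in windows from 250 bases before to 50 bases after each RefSeq start on GRCh38.p14. Such windows were at hand for 41 of the 54 genes, and not for SLC6A6, SLC6A12, SLC7A4, SLC7A11 and SLC43A3 among the tested ones. A CARE match stood in 6 of these 41 genes (14.6%), against 4.46% of all genes with windows. An ARE match stood in 7 of 41 genes (17.1%), against 16.1% of all genes. Of the 6 genes with windows that were called lower, 3 held a CARE match and 3 an ARE match, and of the 9 called higher, 2 and 1. Over all tested genes with windows, 2.75% held a CARE match and 19.1% an ARE match. A gene with more windows has more room for a match, and the 41 genes had 63 windows. Counted by window, CARE stood in 9.52% of these against 3.62% of all windows, and ARE in 11.1% against 13.3%. A match is a run of letters and says nothing of binding.

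The stretches around these matches are given for the called genes, on the gene's strand and with the matched letters in capitals, because both motifs occur in genes called in opposite directions. Those of SLC7A1 and SLC7A5 lie at the outermost start of the gene. Those of SLC1A5, SLC1A4, SLC38A1 and SLC3A2 lie at starts inside the gene. The windows at the outermost start of SLC1A5, SLC1A4 and SLC3A2 had 0 matches.
SLC1A5, called lower, minus strand, chr19:46784874-46784941, CARE: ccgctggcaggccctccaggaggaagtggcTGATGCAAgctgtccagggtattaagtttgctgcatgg
SLC1A5, at another start, minus strand, chr19:46787366-46787434, ARE: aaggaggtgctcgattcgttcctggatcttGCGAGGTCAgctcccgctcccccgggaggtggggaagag
SLC1A4, called lower, plus strand, chr2:64989362-64989428, CARE: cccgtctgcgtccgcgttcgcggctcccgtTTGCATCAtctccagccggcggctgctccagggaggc
SLC7A1, called lower, minus strand, chr13:29595659-29595803, ARE and then CARE: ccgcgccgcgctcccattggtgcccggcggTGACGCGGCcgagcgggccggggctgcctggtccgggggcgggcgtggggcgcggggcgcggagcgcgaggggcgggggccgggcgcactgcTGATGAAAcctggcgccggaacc
SLC7A5, called lower, minus strand, chr16:87869478-87869539, ARE: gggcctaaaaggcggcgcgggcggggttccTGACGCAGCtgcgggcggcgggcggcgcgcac
SLC38A1, called higher, minus strand, chr12:46266487-46266550, CARE: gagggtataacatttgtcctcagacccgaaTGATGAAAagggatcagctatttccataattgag
SLC3A2, called higher, plus strand, chr11:62881632-62881700, ARE: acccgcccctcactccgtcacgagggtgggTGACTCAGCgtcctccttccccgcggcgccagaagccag
The share of genes with a CARE match depended on the window. In the 150 bases before the start it was 1 of 41 genes (2.44%), against 2.37% of all genes, since the matches of SLC1A4 and SLC38A1 spanned the start, those of SLC3A2 (outside the stretch printed here) and SLC7A1 lay beyond it, and that of the untested SLC1A3 lay further before it.

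The heavy chain SLC3A2 (4F2hc, also CD98hc, chr11:62856109-62888860) partners with several light chains. It had 171, 148 and 168 FPKM in control replicates 1 to 3 and 209, 187 and 225 FPKM in hyperoside replicates 1 to 3. All hyperoside libraries were above all control libraries. The mean went from 162 ± 12.5 to 207 ± 19.4 FPKM (SD, n = 3 each), and the log2 fold change was 0.30 (standard error, SE, 0.08, adjusted p = 6.18e-03, edgeR). Without control replicate 2 the log2 fold change was 0.23 and the adjusted p 0.053, just past the threshold. The other heavy chain, SLC3A1, which serves the kidney cystine transporter, had 6, 0 and 0 counts in control and 0, 0 and 3 counts in hyperoside libraries, and it was not tested.

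The light chains of 4F2hc moved in opposite directions. SLC7A5 (LAT1, chr16:87830023-87869507), the exchanger of large neutral amino acids such as leucine, had 45.8, 37.6 and 46.6 FPKM in control and 19.9, 24.0 and 20.3 FPKM in hyperoside libraries. The lowest control library stood well above the highest hyperoside library. SLC7A5 fell by 1.07 on the log2 scale (SE 0.09, adjusted p = 6.97e-08, edgeR), from 43.3 ± 4.95 to 21.4 ± 2.24 FPKM (SD, n = 3 each). Near-identical copies of this gene exist elsewhere in the genome, so its count carries some uncertainty. SLC7A8 (LAT2, chr14:23125295-23183660), an exchanger with a wider range of neutral amino acids, had 53.0, 47.0 and 44.1 FPKM in control and 73.7, 77.5 and 77.6 FPKM in hyperoside libraries. Here the hyperoside libraries were the higher ones without overlap. SLC7A8 rose by 0.62 on the log2 scale (SE 0.08, adjusted p = 7.99e-06, edgeR), from 48.0 ± 4.56 to 76.3 ± 2.21 FPKM (SD, n = 3 each).

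SLC7A11 (xCT, chr4:138164097-138242349), which imports cystine in exchange for glutamate and so supplies cysteine for glutathione, had 7.55, 8.50 and 12.9 FPKM in control libraries. It had 2.72, 2.94 and 2.37 FPKM in hyperoside libraries. Control replicate 3 was the highest, and every control library was above every hyperoside library. It fell by 1.90 on the log2 scale (SE 0.14, adjusted p = 1.19e-08, edgeR), the largest fall among the 27 tested genes. SLC7A6 (y+LAT2), an exchanger of cationic and neutral amino acids, had 7.74, 8.18 and 8.03 FPKM in control and 9.10, 10.3 and 7.91 FPKM in hyperoside libraries. The groups overlapped and SLC7A6 was not called, with a log2 fold change of 0.14 (95% interval -0.05 to 0.33, adjusted p = 0.232, edgeR). SLC7A7 (y+LAT1), its close relative, had 0.589, 0.620 and 0.715 FPKM in control and 0.901, 0.976 and 1.19 FPKM in hyperoside libraries. The libraries did not overlap, but at 51 to 100 counts per library the adjusted p was 0.0829, so no call was made in edgeR, with a log2 fold change of 0.62 (95% interval 0.03 to 1.22).

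Of the 5 light chains 1 was called higher and 2 lower, where 22.1% and 23.2% of all tested genes were. Their summed level was alike in both groups while its makeup was not. The sum was 110 ± 6.79 FPKM in control cells and 110 ± 4.73 FPKM in hyperoside cells (SD, n = 3 each). SLC7A5 made up 36.9% to 41.5% of this sum in control and 18.6% to 20.7% in hyperoside libraries. SLC7A8 made up 39.2% to 46.2% in control and 67.0% to 70.9% in hyperoside libraries. SLC7A11 went from between 6.59% and 11.5% to between 2.17% and 2.55%, and SLC7A6 stayed between 6.75% and 8.87% throughout. The ratio of SLC7A8 to SLC7A5 was 0.946 to 1.25 in control and 3.23 to 3.82 in hyperoside libraries. The heavy chain was 1.45 to 1.49 times the summed light chains in control and 1.62 to 2.06 times in hyperoside libraries. These are transcript levels, and protein was not measured in these files.

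**Figure D4:**
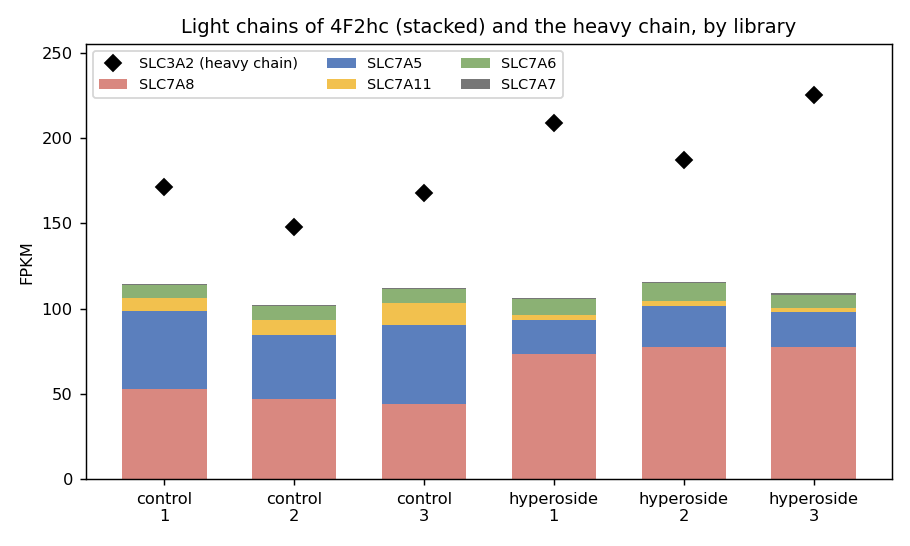
Stacked FPKM of the 5 light chains of 4F2hc in each library, with the heavy chain SLC3A2 as a black diamond. The stacks reach a similar height in all 6 libraries, with more SLC7A8 and less SLC7A5 and SLC7A11 in hyperoside libraries, and the diamonds are higher there.

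The cationic carrier SLC7A1 (CAT1, chr13:29509414-29595688), the main importer of arginine and lysine in many dividing cells, had 9.69, 10 and 10.9 FPKM in control and 8.25, 9.68 and 8.46 FPKM in hyperoside libraries. The groups were separate by a narrow margin. SLC7A1 fell by 0.26 on the log2 scale (SE 0.08, adjusted p = 0.0159, edgeR), and without control replicate 3, hyperoside replicate 1 or hyperoside replicate 3 the adjusted p was 0.0565, 0.107 and 0.0868. Its relative SLC7A4 (chr22:21028718-21032561), whose own transport activity is not established, had 2, 1 and 2 counts in control and 36, 38 and 22 counts in hyperoside libraries. Summed over the group this was 5 against 96 counts, a ratio of 18.6 in normalized counts (exact 95% interval for counting error 7.7 to 58.6). In the fit this was 4.12 on the log2 scale (SE 0.69, adjusted p = 9.6e-05, edgeR), but the level stayed low at 0.385 ± 0.104 FPKM (SD, n = 3). SLC7A4 passed the filter only through its hyperoside counts, so its p-value is not separate support for the rise. On the scales of log2(FPKM + 0.1) and log2(FPKM + 1) its log2 fold change was 1.99 and 0.44. Exons of SLC7A4 overlap those of P2RX6 on the opposite strand. P2RX6 had 173, 242 and 238 counts in control and 361, 274 and 280 in hyperoside libraries. Whether reads were counted by strand is not stated, so reads of the pair cannot be told apart.

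In SLC1, both tested genes are exchangers of neutral amino acids, and both were called lower, where 23.2% of all tested genes were. SLC1A5 (ASCT2, chr19:46774883-46788594), a main route of glutamine entry, had 181, 155 and 166 FPKM in control and 92.2, 107 and 97.4 FPKM in hyperoside libraries. The groups were far apart. SLC1A5 fell by 0.81 on the log2 scale (SE 0.08, adjusted p = 3.49e-07, edgeR), which took the summed FPKM of SLC1 from 178 ± 14.6 to 108 ± 7.91 (SD, n = 3 each). SLC1A4 (ASCT1, chr2:64988479-65023865), which prefers alanine, serine and cysteine, had 12.0, 8.81 and 10.7 FPKM in control and 8.75, 9.35 and 8.54 FPKM in hyperoside libraries. Control replicate 2 lay inside the hyperoside range. SLC1A4 fell by 0.29 on the log2 scale (SE 0.11, adjusted p = 0.0317, edgeR), and its call was lost in 9 of 16 alternative analyses. Leaving out control replicate 1 gave an adjusted p of 0.128, control replicate 3 gave 0.0525, hyperoside replicate 1 gave 0.103 and hyperoside replicate 3 gave 0.124.

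In SLC6, the creatine and the taurine carrier went apart. SLC6A8 (chrX:153687926-153696593), which imports creatine, had the highest mean FPKM of the 54 genes over all 6 libraries, though in control cells SLC1A5 and SLC3A2 had higher means. It had 159, 167 and 143 FPKM in control and 273, 240 and 289 FPKM in hyperoside libraries. All hyperoside libraries were above all control libraries. SLC6A8 rose by 0.72 on the log2 scale (SE 0.08, adjusted p = 1.45e-06, edgeR). Its exons overlap those of PNCK on the opposite strand, which had 1387 to 1563 counts in control and 2615 to 3197 counts in hyperoside libraries (log2 fold change 0.97), and the genome holds near-identical partial copies of SLC6A8, so its count is uncertain to that extent. SLC6A6 (TauT, chr3:14402576-14489349), which imports taurine and beta-alanine, had 47.8, 46.5 and 43.6 FPKM in control and 21.0, 20.5 and 20.9 FPKM in hyperoside libraries. The hyperoside libraries lay very close together and well below the controls. SLC6A6 fell by 1.20 on the log2 scale (SE 0.07, adjusted p = 9.53e-10, edgeR), the smallest adjusted p among the 27 tested genes. The ratio of SLC6A8 to SLC6A6 was 3.29 to 3.59 in control and 11.7 to 13.8 in hyperoside libraries.

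The other SLC6 genes were at low levels. SLC6A9 (GlyT1), the glycine importer that developing red cells need for heme, had 2.64, 2.50 and 3.15 FPKM in control and 1.23, 1.84 and 1.94 FPKM in hyperoside libraries. The groups did not overlap, and SLC6A9 fell by 0.77 on the log2 scale (SE 0.17, adjusted p = 1.39e-03, edgeR). The orphan SLC6A16 had 0.910 to 1.37 FPKM in control and 0.763 to 1.21 FPKM in hyperoside libraries and was not called. SLC6A12 (BGT1), a carrier of betaine and GABA, had 0, 3 and 15 counts in control and 20, 7 and 14 in hyperoside libraries. It was not called (log2 fold change 1.13, 95% interval -0.63 to 2.89, adjusted p = 0.288, edgeR). Without control replicate 3 its log2 fold change was 3.03 and its adjusted p was 0.0344.

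SLC38 was the family with most genes called higher, 4 of the 7 tested (57.1%, against 22.1% of all tested genes). None was called lower (against 23.2%), a share read from only 7 genes and not tested. SLC38A1, 1 of the 4, lost its call in 6 of 16 alternative analyses. SLC38A7 (SNAT7, chr16:58665109-58684770), a lysosomal exporter of glutamine and asparagine, had 1.21, 1.24 and 1.5 FPKM in control and 3.63, 3.67 and 4.05 FPKM in hyperoside libraries. The groups were far apart on this scale. SLC38A7 rose by 1.48 on the log2 scale (SE 0.13, adjusted p = 1.13e-07, edgeR), the largest rise among genes with more than a few counts in control cells. SLC38A10 (chr17:81244811-81295307), a glutamine, glutamate and aspartate carrier found inside cells, had 5.52, 6.51 and 6.92 FPKM in control and 15.5, 16.0 and 15.1 FPKM in hyperoside libraries. The hyperoside libraries again lay close together, all above the controls. SLC38A10 rose by 1.25 on the log2 scale (SE 0.09, adjusted p = 5.22e-09, edgeR).

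SLC38A6 (chr14:60981245-61083733), a less studied member, had 1.27, 1.76 and 1.97 FPKM in control and 3.74, 3.16 and 4.06 FPKM in hyperoside libraries. SLC38A6 rose by 1.09 on the log2 scale (SE 0.15, adjusted p = 1.29e-05, edgeR), and it lay past 2-fold in 14 of 16 alternative analyses. Without control replicate 1, the lowest library, it was 0.94, and on the scale of log2(FPKM + 1) it was 0.81. Its exons overlap TRMT5 on the opposite strand, which was not called (log2 fold change -0.08, adjusted p = 0.557, edgeR). TRMT5 had 821 to 827 counts in control and 698 to 928 in hyperoside libraries. SLC38A6 itself had 228 to 343 and 557 to 710 counts. With the strand setting not stated, the count of SLC38A6 is uncertain to that extent. SLC38A9 (chr5:55625845-55712335), the lysosomal arginine sensor that signals to mTORC1, had 3.91, 4.36 and 3.90 FPKM in control and 4.79, 5.26 and 4.55 FPKM in hyperoside libraries. The libraries did not overlap, yet SLC38A9 was not called (log2 fold change 0.21, 95% interval -0.02 to 0.45, adjusted p = 0.131, edgeR).

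The plasma membrane carriers SLC38A1, SLC38A2 and SLC38A5 had higher mean FPKM than the SLC38 genes above. SLC38A2 (SNAT2, chr12:46358188-46372773), the system A carrier that cells adjust to amino acid supply, had 57.2, 68.1 and 69.4 FPKM in control and 62.7, 60.3 and 58.2 FPKM in hyperoside libraries. Control replicate 1 was the lowest of all 6 libraries. SLC38A2 was not called (log2 fold change -0.15, 95% interval -0.30 to 0.00, adjusted p = 0.1, edgeR), and without control replicate 1 it was called lower at -0.21 (adjusted p = 4.81e-03). Its neighbour SLC38A1 (SNAT1, chr12:46183063-46269043), a carrier of the same system, had 13.9, 17.2 and 20.4 FPKM in control and 21.4, 22.4 and 20.1 FPKM in hyperoside libraries. Control replicate 3 overlapped the hyperoside range. SLC38A1 rose by 0.27 on the log2 scale (SE 0.09, adjusted p = 0.0297, edgeR), and the adjusted p was 0.0728 without control replicate 1, 0.0727 without control replicate 2, 0.08 without hyperoside replicate 1 and 0.116 without hyperoside replicate 2. SLC38A5 (SNAT5), of system N, had 15.2 to 18.0 FPKM in control and 14.2 to 20.3 FPKM in hyperoside libraries and was not called (log2 fold change -0.02, 95% interval -0.27 to 0.22, adjusted p = 0.883, edgeR).

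In SLC36, the proton-coupled carriers, SLC36A1 (PAT1, chr5:151344596-151556085) exports small neutral amino acids from lysosomes. It had 1.57, 1.65 and 1.70 FPKM in control and 2.43, 2.36 and 2.22 FPKM in hyperoside libraries, without overlap. SLC36A1 rose by 0.46 on the log2 scale (SE 0.09, adjusted p = 3.66e-04, edgeR). SLC36A4 (PAT4), a high-affinity carrier of proline and tryptophan, had 0.8, 1.01 and 1.09 FPKM in control and 1.06, 1.12 and 1.28 FPKM in hyperoside libraries. These overlapped, and SLC36A4 was not called (log2 fold change 0.21, 95% interval -0.14 to 0.55, adjusted p = 0.32, edgeR).

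All 3 genes of SLC43 were called, 2 higher and 1 lower, where 22.1% and 23.2% of all tested genes were. SLC43A1 (LAT3, chr11:57484534-57515702), a facilitative carrier of large neutral amino acids, had 14.2, 13.6 and 15.3 FPKM in control and 6.50, 6.11 and 6.12 FPKM in hyperoside libraries. Every control library was more than 2 times the highest hyperoside library. SLC43A1 fell by 1.25 on the log2 scale (SE 0.09, adjusted p = 7.12e-09, edgeR). SLC43A3 (ENBT1, chr11:57406954-57427580), which lies beside it on the same chromosome and moves purine bases, had 50.3, 45.5 and 46.2 FPKM in control and 78.9, 84.3 and 73.3 FPKM in hyperoside libraries. It rose by 0.69 on the log2 scale (SE 0.08, adjusted p = 1.52e-06, edgeR), so the neighbours were called in opposite directions. SLC43A2 (LAT4), a second facilitative carrier of large neutral amino acids, rose by 0.76 (SE 0.12, adjusted p = 4.58e-05, edgeR) from 1.08 ± 0.019 to 1.88 ± 0.129 FPKM (SD, n = 3 each).

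Some other opposite-strand neighbours held fewer reads than the transporter gene. GRIP2, over SLC6A6, averaged 35 counts per library and was lower, and SLC7A11-AS1, over SLC7A11, averaged 11.2 counts. CCDC24, over SLC6A9, averaged 110 counts, where SLC6A9 itself had only 172 to 437 counts per library. With the strand setting not stated, the count of SLC6A9 is uncertain to that extent.

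The summed level of each family mostly followed its most abundant gene. Over all 54 genes it went from 844 ± 24.4 to 942 ± 24.4 FPKM (SD, n = 3 each), a ratio of 1.12, and without SLC6A8 the ratio was 0.982. The sum of SLC6 rose to 1.41 times its control mean, while SLC6 without SLC6A8 was at 0.474 times. SLC43 stood at 1.39 times, and at 0.527 times without SLC43A3. SLC7 stood at 0.999 times, and at 0.604 times without SLC7A8. For SLC38 the ratio was 1.13, and 1.40 without SLC38A2. SLC3 stood at 1.27 times, SLC36 at 1.34 times and SLC1 at 0.606 times. These sums are descriptions with no test.

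**Figure D5:**
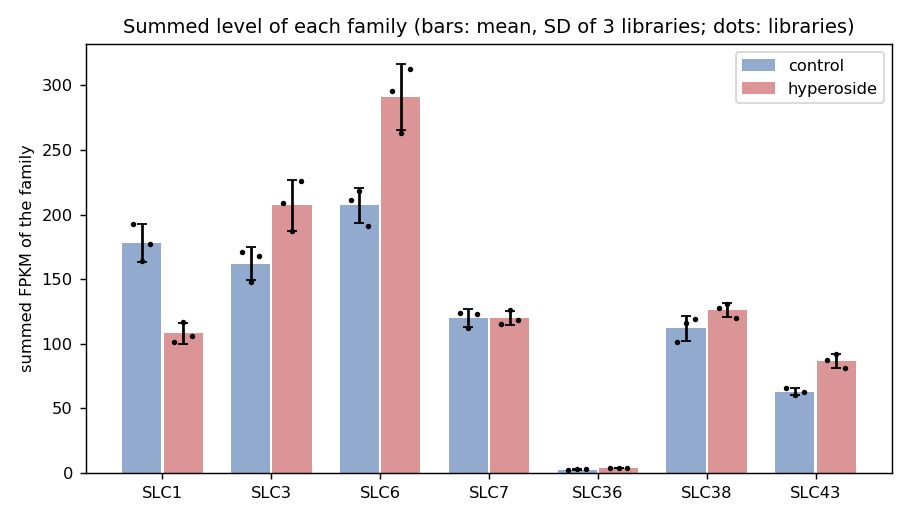
Summed FPKM of each family in control (blue) and hyperoside (red) cells, with bars for the mean, error bars for the SD of 3 libraries and dots for the libraries. SLC1 is lower, SLC3, SLC6 and SLC43 are higher, and SLC7 is level at 120 FPKM in both groups.

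Genes that sense amino acids at the lysosome or answer to their shortage were examined alongside. Of 38 genes of lysosomal amino acid sensing by mTORC1, all tested, 14 were higher (against 22.1% of all tested genes) and 7 lower (18.4%, against 23.2%), and the median change was 0.13 on the log2 scale. RRAGD, a Rag GTPase that recruits mTORC1, stood at 1.23 ± 0.409 CPM in control and 6.41 ± 1.29 CPM in hyperoside cells (SD, n = 3 each), and rose by 2.38 on the log2 scale (SE 0.26, adjusted p = 1.19e-06, edgeR). FNIP2, a partner of folliculin that acts on Rag GTPases, rose by 1.17 (adjusted p = 1.8e-07, edgeR). SESN2, the leucine sensor that restrains mTORC1, fell by 1.44 (SE 0.08, adjusted p = 3.55e-10, edgeR), and SEC13, a subunit of GATOR2, fell by 0.78 (adjusted p = 1.59e-07, edgeR). The amino acid response, in which GCN2 and ATF4 raise synthesis and uptake genes on shortage, was read from a list of genes outside these families. Of its 35 tested genes, 30 were lower (85.7%, against 23.2% of all tested genes) and 3 were higher (8.57%, against 22.1%), and the median was -0.91. As DEGs, 17 of the 35 were lower (48.6%, against 3.76% of all tested genes). PSAT1, an enzyme of serine synthesis, fell by 1.89, the glutathione-degrading CHAC1 by 3.41, the secreted glycoprotein gene STC2 by 3.33 and the transcription factor gene ATF5 by 2. GDF15, VEGFA and NUPR1, named after their values were seen, were the 3 that were higher, at log2 fold changes of 0.46, 0.35 and 0.69. SESN2 is on both lists.

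Of 16 tested genes on a list of mostly amino acid transporters outside the 7 families, 3 were higher (18.8%, against 22.1% of all tested genes). On the same list 8 were lower (against 23.2%), and the median was -0.36. The 8 include the glutathione carrier SLC25A39 and the nucleoside carrier SLC29A3, which are not amino acid transporters. The mitochondrial aspartate-glutamate carrier SLC25A13 rose by 0.97 and the lysosomal exporter of cationic amino acids SLC66A1 by 0.86 (adjusted p = 2.32e-07 and 1.23e-06, edgeR). SLC25A39, which brings glutathione into mitochondria, fell by 0.79 and SLC25A29, a mitochondrial carrier of basic amino acids, fell by 0.82 (adjusted p = 1.14e-06 and 2.18e-04, edgeR). Of 19 tested trafficking and accessory partners of the transporters, 7 were higher (against 22.1% of all tested genes) and 5 lower (26.3%, against 23.2%), with a median of -0.06. TXNIP, an alpha-arrestin that promotes endocytosis of nutrient transporters, rose by 1.99, and its relative ARRDC3 by 0.98. SGK1, a kinase that keeps several of these carriers at the membrane, rose by 1.82. LAPTM4B, which brings 4F2hc and SLC7A5 to lysosomes, fell by 0.80 (SE 0.07, adjusted p = 7.02e-08, edgeR). Nothing was measured of where the transporter proteins lie.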

How the data were processed

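K562 RNA, isolated with Trizol, was sequenced on an Illumina instrument in 6 libraries, 3 control and 3 hyperoside. The authors deposited raw counts per gene, and FPKM values made from the same counts by gene length and library total. The submitters' processing notes name fastp, HISAT2, HTSeq and hg38. Versions, annotation and strand setting were not given in the sources used here. Counts were tested in R 4.3.3 with edgeR 4.0.16, with TMM factors, filterByExpr (minimum count 10, total 15), the quasi-likelihood test with condition as the only term, and Benjamini-Hochberg adjustment over 15095 genes. Standard errors are the log2 fold change over the square root of F. DESeq, named in the paper, was not used. DESeq2 1.42.0 and limma 3.58.1 served as alternatives. Intervals and limits of counts cover counting error only. Gene positions and promoters came from RefSeq, and overlaps between exons from GENCODE 29 on GRCh38. On simulated counts, 80 of 82 genes changed by 1.5 on the log2 scale (97.6%) were recovered, and 2 unchanged genes were called. The simulation gave all genes 1 common dispersion (spread beyond counting error), unlike the data. No gene in it changed by less than 1.5 apart from the unchanged ones, so recovery of smaller changes was not examined. Replicates differed beyond sampling noise, which does not show that they were separate cultures. Each library was treated as 1 sample.

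Members and lists were chosen with earlier results of these data known. Values in every library were given for DEGs, SLC3 genes, light chains of 4F2hc, the 2 most abundant genes of each family and a set of well-known carriers, fold changes for other called genes, and for each list the up to 4 tested genes with the smallest adjusted p. SLC6A9, SLC6A12, SLC6A16, SLC38A5 and SLC43A2 are given in more detail, chosen after their values were seen. Columns with pathways and other annotation were not used. Protein sequences were not analysed here.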

Additional observations from a re-analysis of the deposited data

How the results depend on the processing

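Of the 19 called transporter genes, 15 kept their call in every alternative analysis that tested them (16, and 15 for SLC7A4, which could not be tested at a minimum count of 50), and none changed direction. SLC1A4 lost its call in 9, SLC38A1 and SLC7A1 in 6 each and SLC3A2 in 1. SLC38A5, not called at -0.02, changed sign to 0.02 in limma-trend on log2(FPKM + 0.1) and on log2(FPKM + 1), to 0.03 with library totals and to 0.02 with upper-quartile factors, and ranged from -0.18 to 0.09 with single libraries left out. The number of DEGs that were higher was 2 in limma-trend on log2(FPKM + 1), where the added 1 shrinks low values, and 3 to 5 with a library left out. The median log2 fold change was 0.15 without control replicate 1 and 0.28 without control replicate 3. The summed ratio was 0.982 without SLC6A8, and the CARE share was 2.44% in the shorter window. Same-numbered replicates did not deviate together (correlations -0.081, -0.0327 and -0.0342). With the replicate block, 11 transporter genes were higher and 7 lower, without SLC1A4, and 3026 and 3103 of all genes. Protein identity was not run. Depth limits statements on the 27 genes under the filter.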

Other observations

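Antisense and opposite-strand genes named after the transporters were left out of the families. SLC7A11-AS1, whose exons overlap SLC7A11 on the opposite strand, had 5, 11 and 13 counts in control and 17, 14 and 7 counts in hyperoside libraries and was not called (log2 fold change 0.34, adjusted p = 0.69, edgeR). SLC7A6OS, a protein-coding gene that overlaps SLC7A6 on the opposite strand, had 1302, 1134 and 1156 counts in control and 1207, 1100 and 959 counts in hyperoside libraries and was not called (adjusted p = 0.15, edgeR). SLC38A2-AS1, SLC6A12-AS1 and SLC7A14-AS1 had at most 6 counts in any library.

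Among the mitochondrial carriers of SLC25, 42 of 48 genes were tested, 5 were higher (11.9%, against 22.1% of all tested genes), 11 lower (26.2%, against 23.2%) and 1 a DEG (2.38%, against 10.2%), with a median size of change of 0.25 on the log2 scale. SLC16A10, a carrier of aromatic amino acids at the plasma membrane, was the 1 DEG among the other amino acid transporters (6.25%, against 10.2% of all tested genes). It was named after its values were seen. It fell by 1.92 on the log2 scale (standard error 0.53, adjusted p = 6.66e-03, edgeR), at a low level of 1.15 ± 0.612 CPM in control and 0.301 ± 0.0964 CPM in hyperoside cells (SD, n = 3 each).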
